A study of Homo sapiens with 6 samples.

Results

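Transcripts of 59 human genes that encode tRNA modification enzymes, or subunits of such enzymes, were compared between wild-type (WT) and THUMPD1 knockout (THUMPD1 KO) HEK-293T cells. The genes were taken by symbol from a table of estimated gene counts with 58870 genes. All 59 symbols were found, and all 59 were among the 15088 genes abundant enough to be tested. The THUMP-domain genes and NAT10 were not in the list. Members were methyltransferases, pseudouridine and dihydrouridine synthases, deaminases, the Elongator complex with the uridine thiolation enzymes, and the enzymes of the large purine modifications beside the anticodon.

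Transfer RNA is the most heavily modified RNA of the cell. Modifications in its body, the D and T arms and the variable loop, mainly bear on folding and stability. Those in the anticodon loop bear on decoding, since they tune base pairing of the wobble base and stack the purine that follows the anticodon. Most of these reactions are carried out by enzymes dedicated to 1 position, and many act as pairs of a catalytic subunit and a partner. Mitochondrial tRNA has enzymes of its own, which are also encoded in the nucleus.

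THUMPD1 is an adaptor with which the acetyltransferase NAT10 acetylates cytidine in tRNA. The data asked how transcript levels differ when this adaptor is missing. There were 3 WT libraries (labelled genotype Thumpd+/+) and 3 THUMPD1 KO libraries (labelled genotype Thumpd-/-). All came from HEK-293T, an immortalized human embryonic kidney line, grown in DMEM with no further treatment. The knockout was made by CRISPR-Cas9 cutting followed by sorting of single cells. Whether 1 clone or several gave the libraries is not stated, and differences that arise with cloning cannot be told apart from an effect of the genotype. Nothing states that replicates were separate cultures, so p-values measured the spread between these libraries, which may be technical.

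Total RNA depleted of ribosomal RNA gave between 32225646 and 44099898 counts per library, so that 1 CPM (counts-per-million) stood for 32.2 to 44.1 read pairs. No member had fewer than 216 counts in any library. THUMPD1 had 77.3, 84.6 and 80.8 CPM in the WT libraries against 10.2, 12.0 and 11.0 CPM in the knockout (log2 fold change −2.87, limma-voom adjusted p = 3.17e-08), in the direction of the labels. The labels give kidney as the tissue, but of 9 markers of kidney epithelium 5 were at 0 in all libraries and only LRP2 passed the filter. LRP2 was at 51.1 to 66.4 CPM over the libraries and was not called (limma-voom adjusted p = 0.918). All 8 markers of HEK-293 lines passed the filter, with a summed level of 592 to 618 CPM in WT and 532 to 585 CPM in the knockout. Of these markers 5 were called, PAX2, LHX1 and NEFL higher and NEFM and KRT18 lower. NEFM, a neurofilament gene, had 44.7, 28.2 and 33.1 CPM in WT and 6.72, 4.54 and 4.75 CPM in the knockout (limma-voom adjusted p = 1.30e-05). Of 5 fibroblast markers 2 passed the filter, and the 5 summed to 13.99 to 18.35 CPM in WT and 10.66 to 15.23 CPM in the knockout. COL1A1 made up most of this sum and was called lower (log2 fold change −0.478, limma-voom adjusted p = 0.0160). The 4 blood cell markers summed to at most 0.385 CPM in any library.

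Differences between genotypes in the tRNA modification genes were few and small. At an adjusted p under 0.05, 9 of the 59 genes were called, 7 higher and 2 lower in the knockout. This was 15.3%, beside 26.7% of all genes tested, 13.7% higher and 13.0% lower. The highest was YRDC, which makes the threonylcarbamoyl unit for tRNA that reads codons starting with A, and the lowest was TRUB1, a pseudouridine synthase of the T loop. Log2 fold changes ran from −0.43 to 0.36 with a median of 0.055, beside 0.016 over all genes tested.

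Size was limited in both directions. The median absolute log2 fold change was 0.116 for the members and 0.132 for all genes. For the 9918 genes in the same range of WT levels it was 0.114. For 57 of the 59, the 95% interval lay within 0.5 of 0 on the log2 scale, which held for 74.0% of all genes tested and for 88.3% of the 9918 genes in the same range of WT levels. The exceptions were YRDC, with an interval of 0.15 to 0.58, and TRUB1, with −0.53 to −0.33. The summed level of the 59 genes was 2463, 2530 and 2504 CPM in the WT libraries and 2543, 2562 and 2579 CPM in the knockout libraries. All 3 knockout sums lay above the WT sums, but they are scaled by library totals alone. Under that scaling the median log2 fold change was 0.060 for the members and 0.030 for all genes tested. With TMM scaling, another way to scale libraries, these medians were 0.034 and 0.005. Whether the sums differ under another scaling was not tested.

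**Figure D1:**
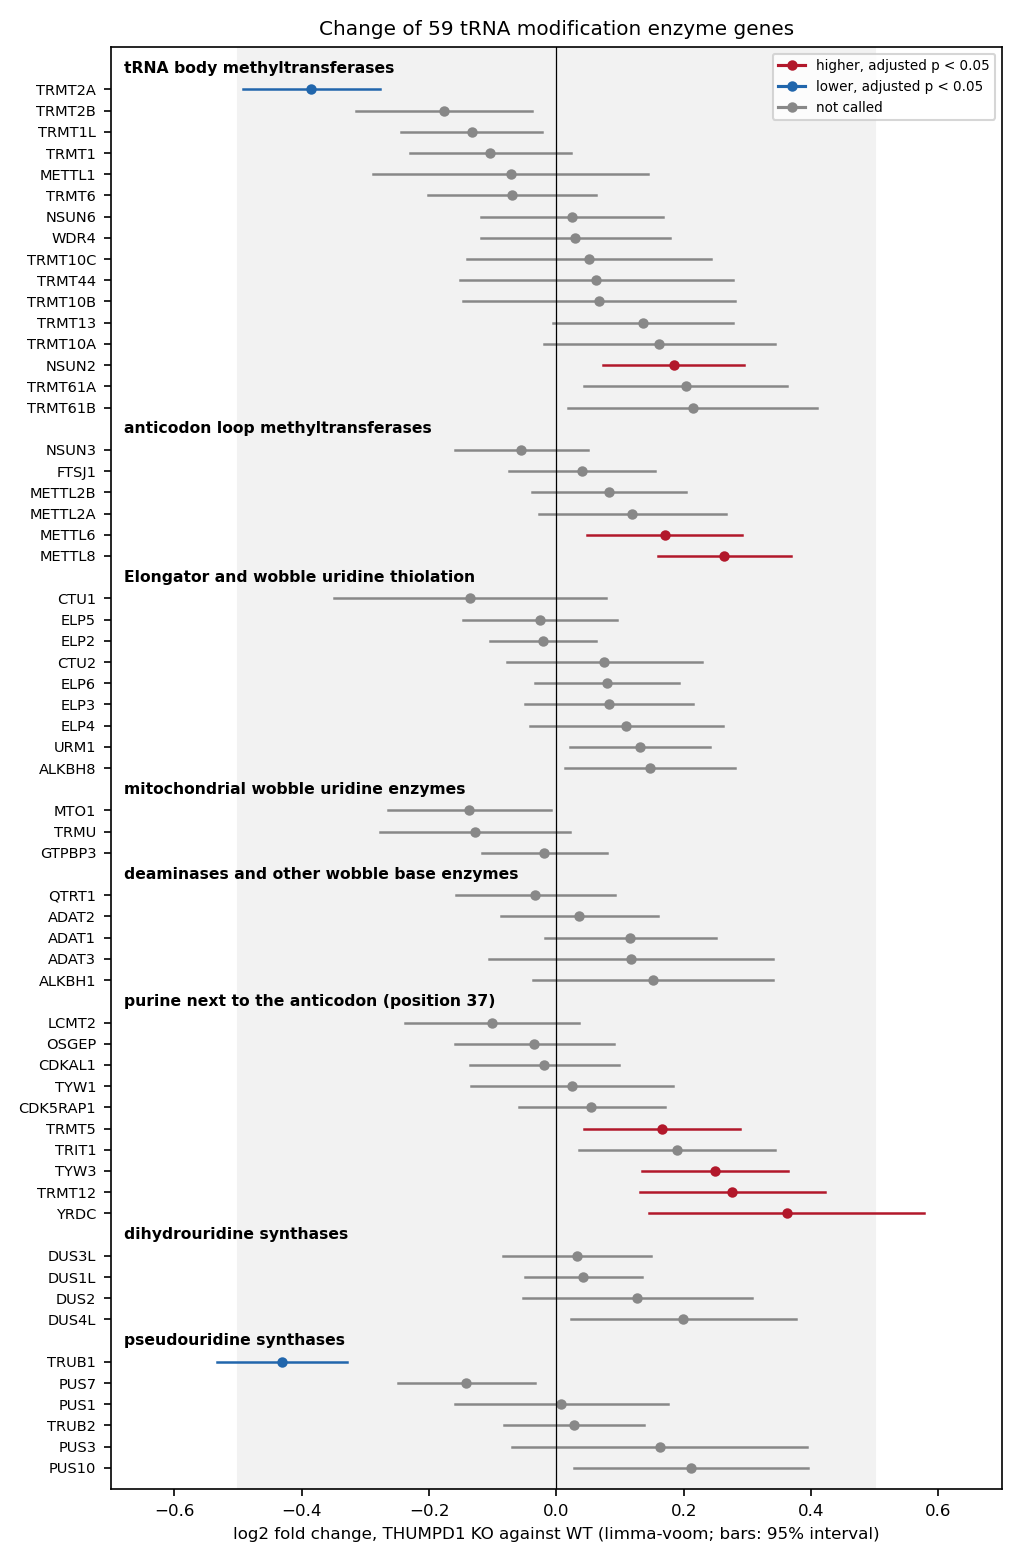
Log2 fold change of each of the 59 genes (rows, grouped by role and ordered within the group), THUMPD1 KO against WT, from limma-voom. Points are estimates and bars 95% intervals over 3 libraries per genotype; red genes were called higher and blue genes lower, and the grey band spans 0.5 to either side of 0. The 7 red genes lie between 0.17 and 0.36, the blue genes TRMT2A and TRUB1 lie at or below −0.38, and only YRDC and TRUB1 have bars that leave the band.

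The counts depended on how libraries were scaled and on single libraries. With TMM scaling 5 of the members were higher and 5 lower, the edgeR quasi-likelihood test called 5 higher and 6 lower, and DESeq2 called 5 higher and 4 lower. In these fits 25.8%, 25.7% and 24.3% of all genes were called. Of all genes called, 46.3%, 46.1% and 45.6% were higher there, beside 51.3% by limma-voom without a block. With the replicate number as a block, 17 were called, 12 higher and 5 lower, beside 35.1% of all genes. Without THUMPD1 KO replicate 2 the count was 5, and it was 6 without WT replicate 3, while the share of all genes called also fell, to 17.7% and 18.1%. The genotypes did not overlap in 23 of the 59 genes (39.0%), beside 42.2% of all genes tested.

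TRUB1 (ENSG00000165832.6, chr10:114938195-114977676, plus strand, GRCh38) had the largest difference of the 59 genes. It is one of the human counterparts of bacterial TruB, which makes the conserved pseudouridine of the T loop. Its level was 52.9, 51.9 and 51.4 CPM in WT and 39.3, 38.9 and 37.6 CPM in the knockout, or 74.1% of WT. Every knockout library lay far below every WT library, and the SD within a genotype was 0.794 and 0.891 CPM. The log2 fold change was −0.43 ± 0.05 (SE, n = 3 per genotype), with a limma-voom adjusted p of 0.000108.

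The other 5 pseudouridine synthases of the list were not called by limma-voom without a block. PUS7, which also modifies messenger RNA, came nearest, at 77.7 ± 3.26 CPM in WT and 70.6 ± 1.11 CPM in the knockout (SD, n = 3). The log2 fold change of PUS7 was −0.14 (limma-voom adjusted p = 0.0539, and 0.0254 with the replicate block). It was called lower by edgeR (adjusted p = 0.0298) and DESeq2 (adjusted p = 0.0350). PUS1, PUS3, PUS10 and the mitochondrial TRUB2 had values between 0.01 and 0.21, with limma-voom adjusted p from 0.0846 to 0.947. Whether TRUB1 differs from its relatives in response was not tested.

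TRMT2A (ENSG00000099899.15, chr22:20111875-20117392, minus strand, GRCh38) was the other gene called lower. It makes methyluridine in the T loop of cytosolic tRNA, at the base beside the pseudouridine that TRUB-type enzymes make. TRMT2A stood at 74.5, 70.1 and 69.3 CPM in WT and at 56.5, 51.9 and 55.9 CPM in the knockout, without overlap. The fall was to 76.8% of the WT mean (log2 fold change −0.385 ± 0.05, SE, limma-voom adjusted p = 0.000307).

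Most genes of chromosome 22 moved the same way as TRMT2A. Of the 374 other tested genes on this chromosome, 252 were called lower and 5 higher, with a median log2 fold change of −0.34. Among them TRMT2A stood at percentile 38.5, and the 20 nearest tested genes, 10 on each side, had a median of −0.41, with 14 called lower. The part of this chromosome-wide difference in the TRMT2A value was not tested. TRMT2A also shares 396 exonic bases with genes of the opposite strand, DGCR8 and RANBP1, and whether counting used strand is not stated. Of the genes called higher, YRDC shares 532, METTL6 343, TYW3 257, TRMT5 166, METTL8 129 and NSUN2 112 such bases. Leaving out both members on chromosome 22, 8 of 57 were called, 7 higher and 1 lower. TRUB1 lay among neighbours with a median of −0.03, of which 4 of 20 were called lower, and at percentile 4.90 among the tested genes of chromosome 10. Beside the genes called higher, the 20 nearest tested genes had a median of 0.14 for NSUN2, 0.12 for METTL6 and 0.10 for YRDC. Medians were 0.07 for TYW3 and TRMT5, 0.02 for TRMT12 and 0.00 for METTL8. Of these neighbours, 8 were called higher and 3 lower for NSUN2, 6 and 1 for METTL6, and 5 and 0 for YRDC. The counts were 5 and 1 for TYW3, 3 and 1 for TRMT5, 3 and 3 for TRMT12 and 3 and 2 for METTL8. The part of neighbouring genes was not tested.

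Of the 16 methyltransferase genes of the tRNA body, limma-voom without a block called NSUN2 higher and TRMT2A lower. The edgeR test called both of these and also TRMT1L and TRMT2B, both lower. NSUN2 (ENSG00000037474.15, chr5:6599239-6633291, minus strand) makes methylcytidine in the variable loop and elsewhere in many tRNA species. It was measured at 138, 146 and 139 CPM in WT and at 154, 164 and 171 CPM in the knockout. The highest WT library lay below the lowest knockout library by about the distance between WT libraries. NSUN2 rose by a log2 fold change of 0.18 ± 0.05 (SE, limma-voom adjusted p = 0.0196). Leaving out WT replicate 3, or either of THUMPD1 KO replicates 2 and 3, ended the call, with an adjusted p of up to 0.0801.

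TRMT6 and TRMT61A form the enzyme for methyladenosine in the T loop, with TRMT61A as the catalytic subunit. TRMT6 was at 41.6, 43.5 and 41.0 CPM in WT and at 43.7, 39.7 and 37.1 CPM in the knockout, with overlap (log2 fold change −0.07, limma-voom adjusted p = 0.420). TRMT61A was at 26.7, 30.8 and 30.4 CPM in WT and at 32.3, 34.4 and 33.6 CPM in the knockout, without overlap (0.20, limma-voom adjusted p = 0.0590). With the replicate block TRMT61A was called (adjusted p = 0.0122). Its mitochondrial relative TRMT61B gave a similar value, 0.21, and was also called with the block (limma-voom adjusted p = 0.0971 without it and 0.0404 with it).

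METTL1 and its partner WDR4 make methylguanosine in the variable loop. METTL1 had 16.7, 19.6 and 18.4 CPM in WT and 15.7, 16.9 and 19.0 CPM in the knockout. WDR4 had 41.0, 45.7 and 44.7 CPM in WT and 41.8, 45.4 and 47.7 CPM in the knockout. In both genes the genotypes overlapped, with log2 fold changes of −0.07 and 0.03 and limma-voom adjusted p of 0.626 and 0.778.

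The remaining body methyltransferases were TRMT1, TRMT1L, TRMT2B, TRMT10A, TRMT10B, TRMT10C, TRMT13, TRMT44 and NSUN6. Their log2 fold changes ran from −0.18 (TRMT2B, the mitochondrial relative of TRMT2A) to 0.16 (TRMT10A, a methylguanosine enzyme). TRMT2B was at 30.4 ± 1.98 CPM in WT and 26.9 ± 1.83 CPM in the knockout (SD, n = 3), with no overlap and a limma-voom adjusted p of 0.0600. TRMT2B was called lower with the block (adjusted p = 0.0199), by edgeR (adjusted p = 0.0374) and by DESeq2 (adjusted p = 0.0430). TRMT1L, a relative of the dimethylguanosine enzyme TRMT1, was at −0.13 (limma-voom adjusted p = 0.0742 without the block and 0.0415 with it) and was called by edgeR (adjusted p = 0.0440) but not by DESeq2 (adjusted p = 0.0670).

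Among the 6 methyltransferases of the anticodon loop, METTL8 and METTL6 were called higher and none lower. METTL8 (ENSG00000123600.19, chr2:171315746-171434802, minus strand) makes methylcytidine in mitochondrial tRNA. Its values were 43.3, 41.1 and 40.9 CPM in WT and 49.8, 49.8 and 51.1 CPM in the knockout. All knockout libraries lay above all WT libraries (log2 fold change 0.26 ± 0.05, SE, limma-voom adjusted p = 0.00235).

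METTL6 (ENSG00000206562.11, chr3:15381275-15440566, minus strand) makes the same base in cytosolic tRNA for Ser. Its level was 26.8, 26.5 and 25.0 CPM in WT and 30.6, 29.0 and 28.2 CPM in the knockout, also without overlap. The difference was small (log2 fold change 0.17 ± 0.06, SE, limma-voom adjusted p = 0.0428), and the call held in 3 of 15 alternative fits.

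METTL2A and METTL2B are near-identical copies that modify cytosolic tRNA for Thr and Arg. METTL2A was at 34.7, 39.9 and 40.3 CPM in WT and at 42.7, 41.5 and 40.4 CPM in the knockout. For METTL2B the values were 64.8, 71.8 and 70.4 CPM in WT and 72.9, 70.8 and 75.9 CPM in the knockout. Neither was called (log2 fold changes 0.12 and 0.08, limma-voom adjusted p = 0.210 and 0.294). The copies share 15.9% of the 75-base stretches of METTL2A, so the split of reads between them is uncertain. FTSJ1, the ribose methyltransferase of the anticodon loop, and NSUN3, which acts on mitochondrial tRNA for Met, had log2 fold changes of 0.04 and −0.06 and limma-voom adjusted p of 0.599 and 0.419.

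**Figure D2:**
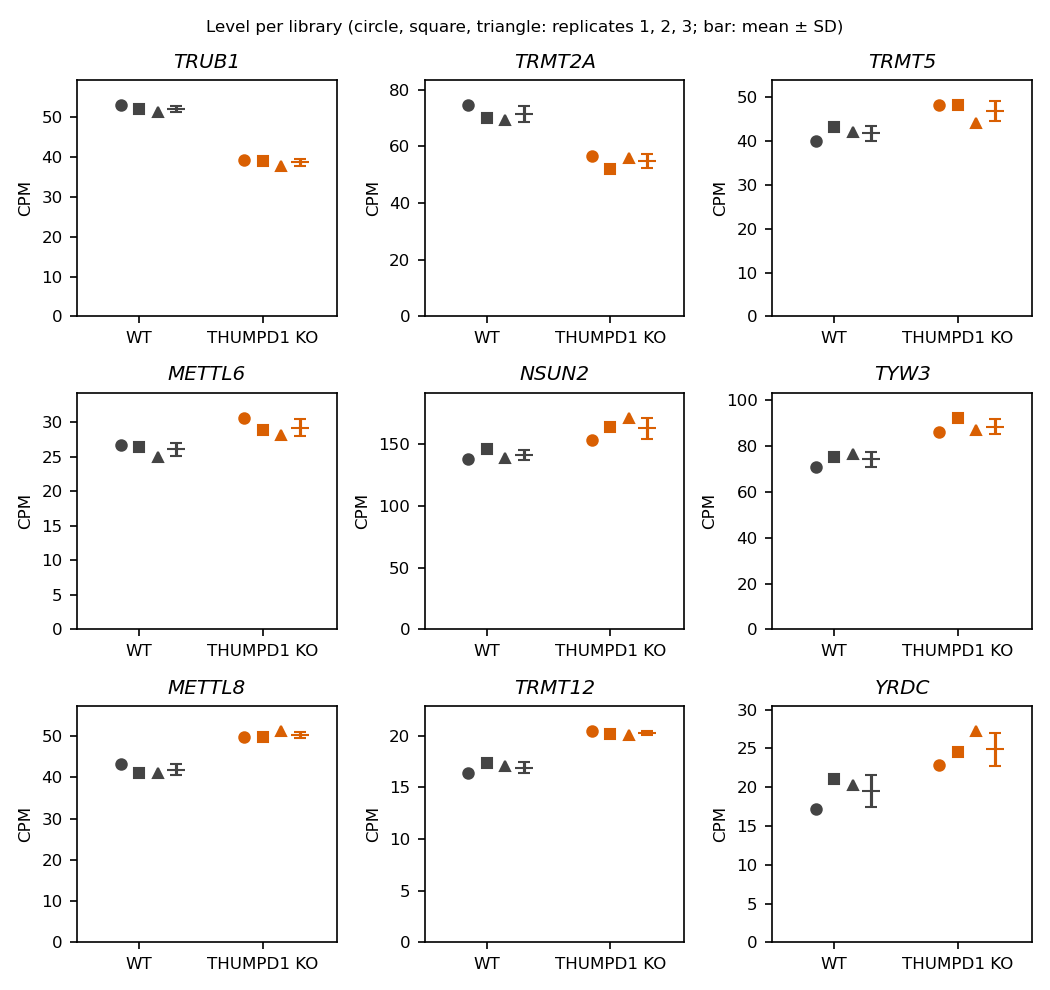
Level in CPM (y axis, from 0) of the 9 called genes in each library, WT in grey and THUMPD1 KO in orange. Circles, squares and triangles are replicates 1, 2 and 3, and the bar beside them is the mean with its SD over 3 libraries. The genotypes do not overlap in any panel; TRUB1 and TRMT2A are lower in the knockout and the other 7 genes higher, with the narrowest gap for TRMT5 (43.2 CPM in the highest WT library, 44.1 CPM in the lowest knockout library).

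Enzymes of the wobble uridine showed no called difference. Elongator starts this pathway, ELP3 being its catalytic subunit, ALKBH8 finishes the methylated product, and CTU1, CTU2 and the sulfur carrier URM1 add the thio group. The 9 genes had log2 fold changes between −0.14 (CTU1) and 0.15 (ALKBH8), with 0 of 9 called, 2 of 9 at an unadjusted p under 0.05 by limma-voom and 0 called by edgeR. Of all 59 members, 20 had an unadjusted p under 0.05 by limma-voom. The adjusted threshold, which is stricter, was passed by 26.7% of all genes tested. The share of all genes under the unadjusted threshold is not given, so unadjusted counts here and below are not read as a result about the members. ELP2, the member with the highest CPM in WT, was at 151 ± 2.17 CPM in WT and 151 ± 1.71 CPM in the knockout (SD, n = 3; log2 fold change −0.02, limma-voom adjusted p = 0.726). ELP3, ELP4, ELP5 and ELP6 lay between −0.03 and 0.11. ALKBH8 was the gene of these 9 that was called with the replicate block (limma-voom adjusted p = 0.0974 without the block and 0.0316 with it). After correction for GC content and length, URM1 was called higher (limma-voom adjusted p = 0.0265). With this correction and the block, CTU2 was called higher too (limma-voom adjusted p = 0.03585).

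CTU1 and CTU2 form the cytosolic thiolase. CTU1 was at 9.73, 10.52 and 10.8 CPM in WT and at 8.88, 9.68 and 9.71 CPM in the knockout, just without overlap (limma-voom adjusted p = 0.329). CTU2 was at 26.0, 28.8 and 27.5 CPM in WT and at 28.3, 27.4 and 31.1 CPM in the knockout (log2 fold change 0.08, limma-voom adjusted p = 0.453). The uridine enzymes of mitochondria, MTO1 and GTPBP3, which add the taurine-containing group, and the thiolase TRMU, were all slightly lower in estimate (−0.14, −0.02 and −0.13) and none was called, with limma-voom adjusted p of 0.107, 0.790 and 0.185 and 1 of 3 at an unadjusted p under 0.05. By edgeR MTO1 was called (adjusted p = 0.0470). TRMU lies on chromosome 22 (46330875 to 46357340), where it stood at percentile 84.5 among the other tested genes.

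Deaminases and further wobble base enzymes also showed no called difference, with 0 of 5 called and 0 of 5 at an unadjusted p under 0.05 by limma-voom, and 0 by edgeR. ADAT2 and ADAT3 together make the wobble inosine, ADAT2 being catalytic. ADAT2 had 65.4, 59.3 and 56.8 CPM in WT and 62.5, 63.4 and 59.4 CPM in the knockout. ADAT3 had 7.38, 7.85 and 8.23 CPM in WT and 8.15, 8.40 and 9.17 CPM in the knockout. Both overlapped between genotypes (log2 fold changes 0.04 and 0.12, limma-voom adjusted p = 0.672 and 0.423). With the block and correction for GC content and length, ADAT3 was called higher (limma-voom adjusted p = 0.0191). ADAT3 lies within SCAMP4 on the same strand, and 18.6% of its 75-base stretches are shared with it. ADAT1, the inosine enzyme of tRNA for Ala, ALKBH1, which acts on methylated and wobble bases, and QTRT1, the catalytic subunit of queuine insertion, ran from −0.03 to 0.15.

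The purine just after the anticodon carries the bulkiest modifications of tRNA, and 4 of the 10 genes of its enzymes were called, all higher. Of all genes tested 26.7% were called in either direction and 13.7% higher. In the same range of WT levels as the members, 28.5% of genes were called. Whether these 10 genes differ from other genes as a group was not tested. By edgeR 3 of the 10 were called, without TRMT5. TRMT5 methylates this purine, and TYW1, TYW3, TRMT12 and LCMT2 build wybutosine on the methylated base of tRNA for Phe. YRDC and OSGEP act in threonylcarbamoylation, TRIT1 adds an isopentenyl group, and CDK5RAP1 and CDKAL1 add methylthio groups.

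YRDC (ENSG00000196449.4, chr1:37802945-37808208, minus strand) was at 17.2, 21.1 and 20.3 CPM in WT and at 22.9, 24.5 and 27.2 CPM in the knockout. No libraries overlapped, but relative to the mean the spread was the widest of the called genes, with SDs of 2.04 and 2.17 CPM. YRDC rose to 127% of the WT mean (log2 fold change 0.36 ± 0.10, SE, limma-voom adjusted p = 0.0195). It shares 532 exonic bases with C1orf122 of the opposite strand, and the use of strand in counting is not stated. Leaving out either of THUMPD1 KO replicates 2 and 3, or dropping the filter on low counts, ended the call, with an adjusted p of up to 0.0818.

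TRMT12 (ENSG00000183665.5, chr8:124450820-124462150, plus strand), which transfers the side chain of wybutosine, was at 16.4, 17.3 and 17.01 CPM in WT and at 20.4, 20.2 and 20.1 CPM in the knockout. The knockout libraries were within 0.166 CPM (SD) of each other and all above WT (log2 fold change 0.28 ± 0.07, SE, limma-voom adjusted p = 0.0108). TYW3 (ENSG00000162623.16, chr1:74733152-74766678, plus strand), a methyltransferase of the same pathway, was at 70.7, 74.96 and 76.7 CPM in WT and at 86.0, 92.0 and 87.0 CPM in the knockout. TYW3 also did not overlap between genotypes, and rose by 0.25 ± 0.05 on the log2 scale (SE, limma-voom adjusted p = 0.00554).

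TRMT5 (ENSG00000126814.6, chr14:60971441-60981170, minus strand) was the called gene nearest to the threshold. It was at 40.0, 43.2 and 41.9 CPM in WT and at 48.1, 48.1 and 44.1 CPM in the knockout (log2 fold change 0.17 ± 0.06, SE, limma-voom adjusted p = 0.0480). THUMPD1 KO replicate 3 lay close to the WT libraries, and the call held in 4 of 15 alternative fits.

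The other genes of wybutosine did not follow these values. TYW1, which closes the extra ring of the base, was at 37.2 ± 1.59 CPM in WT and 37.9 ± 3.37 CPM in the knockout (SD, n = 3; log2 fold change 0.03, limma-voom adjusted p = 0.832), and shares 28.0% of its 75-base stretches with the copy TYW1B. LCMT2, which methylates the side chain, was lower in estimate (−0.10, limma-voom adjusted p = 0.256). OSGEP, the catalytic subunit that transfers the group made by YRDC, had a log2 fold change of −0.04 (limma-voom adjusted p = 0.691). TRIT1, at 0.19, was called with the replicate block (limma-voom adjusted p = 0.0670 without it and 0.0295 with it), while CDK5RAP1 and CDKAL1 were at 0.06 and −0.02.

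The 4 dihydrouridine synthases, which reduce uridines mainly in the D loop, were not called, with 1 of 4 at an unadjusted p under 0.05 by limma-voom and 0 called by edgeR. DUS1L, DUS2 and DUS3L lay between 0.03 and 0.13 with limma-voom adjusted p of 0.276 or more. After correction for GC content and length, DUS1L was called higher (limma-voom adjusted p = 0.0287). DUS4L was at 0.20 (limma-voom adjusted p = 0.0890, and 0.0430 with the replicate block), and 45.0% of its 75-base stretches are shared with the read-through gene DUS4L-BCAP29.

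Promoter sequence of the called genes is shown to give the reader the DNA from which these transcripts start. The RefSeq table on GRCh38.p14 held promoters of 49 of the 59 members, each 250 bases before and 50 bases from the start on. Among the 9 called genes it held 5, and NSUN2, TRMT12, TRMT2A and TYW3 were not matched. TRUB1, METTL8 and YRDC are printed, 1 lower and 2 higher; METTL6 and TRMT5, whose calls held in few alternative fits, are not. Positions are chr10:114937945-114938244 (plus strand) for TRUB1, chr2:171434723-171435022 (minus strand) for METTL8 and chr1:37808159-37808458 (minus strand) for YRDC. Capitals mark matches, on either strand, to the motifs named next.
TRUB1: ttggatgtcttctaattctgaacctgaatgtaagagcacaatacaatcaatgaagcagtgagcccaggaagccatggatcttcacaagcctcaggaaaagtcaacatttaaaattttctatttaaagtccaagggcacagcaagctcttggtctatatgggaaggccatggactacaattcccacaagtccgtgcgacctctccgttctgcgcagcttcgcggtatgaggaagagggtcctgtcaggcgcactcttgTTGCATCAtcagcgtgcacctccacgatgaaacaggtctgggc
METTL8: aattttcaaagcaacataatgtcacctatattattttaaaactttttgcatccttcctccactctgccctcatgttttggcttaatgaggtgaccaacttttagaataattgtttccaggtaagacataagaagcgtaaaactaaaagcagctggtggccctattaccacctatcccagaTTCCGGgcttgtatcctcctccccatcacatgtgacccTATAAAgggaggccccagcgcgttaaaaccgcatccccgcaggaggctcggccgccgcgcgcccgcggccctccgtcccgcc
YRDC: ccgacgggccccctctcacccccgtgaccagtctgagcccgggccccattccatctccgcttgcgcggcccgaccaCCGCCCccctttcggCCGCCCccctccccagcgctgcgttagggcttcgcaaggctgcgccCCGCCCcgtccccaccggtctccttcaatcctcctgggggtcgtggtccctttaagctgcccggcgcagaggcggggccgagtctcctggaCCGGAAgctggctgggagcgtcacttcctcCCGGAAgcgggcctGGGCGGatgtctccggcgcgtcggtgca

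The letters searched on both strands were E-box CACGTG, ETS CCGGAA, NRF1 core GCATGCGC, CCAAT box CCAAT, GC box GGGCGG, CRE TGACGTCA, C/EBP-ATF element TGATGCAA, YY1 AAGATGGC and TATA box TATAAA. The TRUB1 window held 1 match, the C/EBP-ATF letters, found in 0.866% of the 35116 promoters in the table. METTL8 held 1 ETS and 1 TATA box match, and YRDC held 2 ETS and 4 GC box matches. ETS letters were present in 17.2% of all promoters and GC box letters in 45.0%. Over the 64 promoters of the members (a gene may have several), 51.6% held ETS letters, 60.9% GC box letters and 9.38% CRE letters, the last beside 1.85% of all promoters. CRE letters were thus in 6 promoters of members. The sets are unlike, since all members passed the expression filter and the 35116 promoters were not selected by expression or GC content. GC content was 48.3% in the TRUB1 window, 50% in METTL8 and 73.0% in YRDC. No motif was matched in all 3 windows and no printed match overlapped another. A match describes letters only.

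Levels of the members were compared per kilobase of the canonical transcript, as CPM per kb. In WT they ran from 2.15 (PUS10) to 46.2 (NSUN2), with a median of 10.6 CPM per kb. NSUN2, TRMT10C (the methylguanosine subunit of mitochondrial RNase P, 45.9), DUS1L (44.5) and TRMU (42.9) formed the upper end, and their order is not resolved, since the SD of TRMT10C alone was 12.5% of its mean. The lower end comprised PUS10, TRMT10B (2.85), MTO1 (3.07) and LCMT2 (3.50). The plot of levels shows the members in both genotypes.

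**Figure D3:**
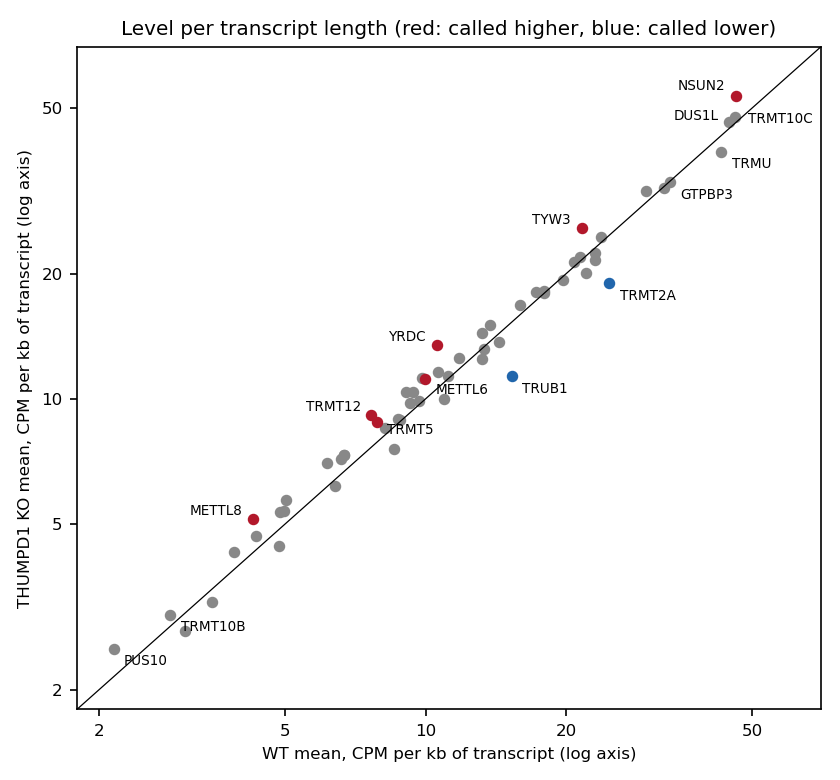
Mean level of the 59 genes in WT (x axis) and THUMPD1 KO (y axis), both in CPM per kb of canonical transcript on log axes, with n = 3 libraries per genotype. Each point is a gene, the line marks equal levels, and genes called higher are red and those called lower blue. Levels span 2.15 to 46.2 CPM per kb in WT, and the points follow the line, TRUB1 and TRMT2A lying farthest below it.

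Replicates of a member usually agreed closely. The median coefficient of variation was 4.27% in WT and 4.54% in the knockout, beside 5.79% and 5.51% for all genes tested. For the 9918 genes in the same range of WT levels it was 4.756% and 4.615%, near the values of the members. The largest of the members in WT were those of PUS3, a pseudouridine synthase of the anticodon arm, and TRMT10C. PUS3 stood at 16.3, 21.2 and 20.7 CPM and TRMT10C at 71.2, 89.1 and 89.5 CPM in WT replicates 1, 2 and 3. In both genes WT replicate 1 was low. In the knockout PUS3 ranged only from 21.0 to 21.7 CPM.

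Ratios between partners of a complex were compared on the per-length scale. For METTL1 over WDR4 the ratio was 0.623, 0.655 and 0.628 in WT and 0.573, 0.570 and 0.610 in the knockout, without overlap. CTU1 over CTU2 gave 0.303, 0.295 and 0.317 in WT and 0.254, 0.286 and 0.253 in the knockout, also without overlap. TRMT6 over TRMT61A had a mean of 1.58 ± 0.12 in WT and 1.32 ± 0.14 in the knockout (SD, n = 3), with overlapping libraries, and ADAT2 over ADAT3 and METTL2A over METTL2B overlapped as well. No model was fitted to these ratios, and exact permutation of 3 against 3 libraries cannot give a p below 0.1.

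Other genes of tRNA modification, 36 in number and all tested, were examined beside the members. They comprised further subunits, sulfur donors and mitochondrial enzymes, and 10 were called, 6 higher and 4 lower (27.8%, beside 26.7% of all genes), with a median log2 fold change of 0.00. Without THUMPD1 KO replicate 2 the count was 6, beside 17.7% of all genes. With the replicate block it was 11 (30.6%), beside 35.1% of all genes. The gene added was RPUSD3, a pseudouridine synthase-like gene that was lower (limma-voom adjusted p = 0.104 without the block and 0.0367 with it). The genes with the smallest adjusted p were MPST and RPUSD1, both lower, and DPH3, DNAJC24, PUS7L and ALKBH3, all higher.

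MPST, a sulfurtransferase that feeds thiolation, was at 66.3, 68.6 and 66.0 CPM in WT and at 48.2, 43.1 and 44.6 CPM in the knockout (log2 fold change −0.56, limma-voom adjusted p = 2.84e-05). It lies on chromosome 22, where its 20 nearest tested genes had a median of −0.37. RPUSD1, a pseudouridine synthase-like gene on chromosome 16, was at 49.6, 54.4 and 53.3 CPM in WT and at 36.3, 37.8 and 41.4 CPM in the knockout (limma-voom adjusted p = 0.000615). The 20 tested genes nearest to RPUSD1 had a median log2 fold change of −0.57, and 16 were called lower. Neighbouring genes thus were lower beside both, and their part in these values was not tested.

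DPH3 and DNAJC24 both serve diphthamide synthesis, and DPH3 also works with Elongator. DPH3 was at 40.0, 43.3 and 44.6 CPM in WT and at 52.8, 52.3 and 50.7 CPM in the knockout (log2 fold change 0.29, limma-voom adjusted p = 0.00392). DNAJC24 was at 34.9, 35.7 and 35.4 CPM in WT and at 43.9, 41.2 and 41.4 CPM in the knockout (0.25, limma-voom adjusted p = 0.00403). PUS7L, a relative of PUS7, had 141, 138 and 140 CPM in WT and 159, 161 and 159 CPM in the knockout (0.18, limma-voom adjusted p = 0.00603). In PUS7L the estimate was positive, and in its relative PUS7 it was negative. ALKBH3, a demethylase, had 20.4, 19.97 and 20.7 CPM in WT and 26.3, 24.1 and 23.2 CPM in the knockout (0.28, limma-voom adjusted p = 0.00732). The remaining 4 called genes, named after their values were seen, were THADA and TP53RK, higher, and TRMT112 and TRMT9B, lower. TRMT112, the activating partner of several methyltransferases, was at 68.6 ± 4.54 CPM in WT and 60.4 ± 1.24 CPM in the knockout (SD, n = 3; log2 fold change −0.18, limma-voom adjusted p = 0.0436).

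Calls of single members were followed through 15 alternative fits. TRUB1, TRMT2A, METTL8, TRMT12 and TYW3 were called in all 15, with log2 fold changes of −0.49 to −0.41, −0.41 to −0.30, 0.22 to 0.28, 0.23 to 0.31 and 0.18 to 0.28. NSUN2 and YRDC were called in 12 of 15 each. Of the 50 genes not called, 14 were called under some alternative and 36 under none. PUS7 and TRMT2B, both lower, were called most often among these, in 7 of 15. How many of all genes tested keep or gain a call over the 15 fits is not given. The counts are therefore not read as a trait of the members.

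**Figure D4:**
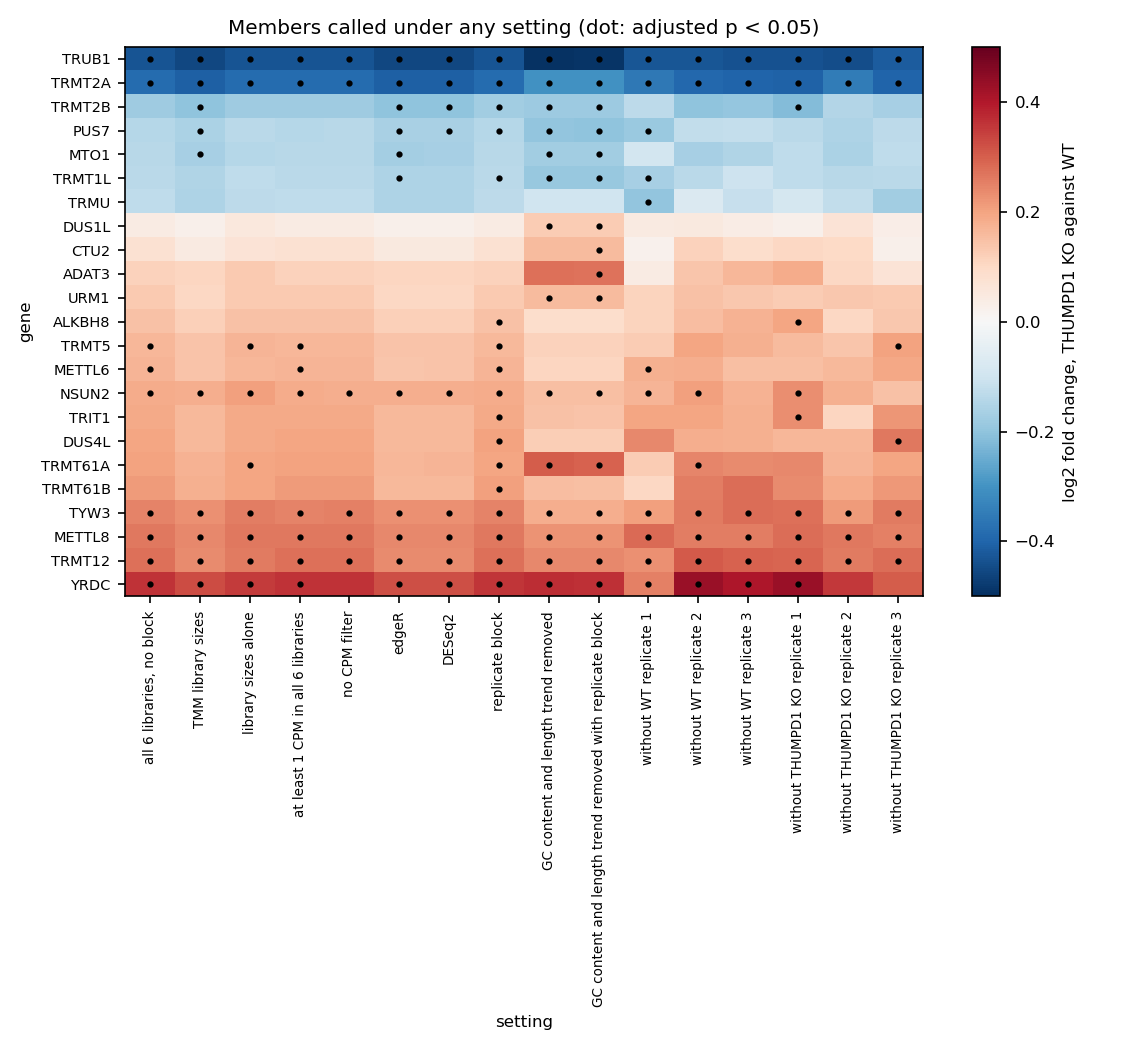
Log2 fold change (colour, THUMPD1 KO against WT) of the 23 members called under any of 16 settings (rows), for each setting (columns); a dot marks an adjusted p under 0.05. The first column is the fit of all 6 libraries with no block. TRUB1 and TRMT2A at the top are blue with a dot in every column, and TYW3, METTL8 and TRMT12 near the bottom are red with a dot in every column, while METTL6 and TRMT5 have few dots.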

How the data were processed

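RNA-seq libraries of 3 WT and 3 THUMPD1 KO samples of HEK-293T cells were analysed, grouped by their labels. The authors depleted total RNA of ribosomal RNA, made stranded paired-end libraries, mapped reads to hg38 with STAR and counted them per gene with RSEM. Values in the deposited table are thus expected counts, without scaling, and the strand setting of counting is not stated. Gene positions and canonical transcript lengths came from GENCODE 44 (99.3% of IDs found). Its ID versions equalled those of the table for 43215 IDs, were newer for 15256 and older for 1, although the study's methods name a release later than 44. The members, the other gene lists and the tests were chosen with earlier results of these data known.

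Following the methods of the study, a gene was kept at 1 CPM or more, here in at least 3 of 6 libraries, and quantile-normalized counts were fitted with limma-voom (limma 3.58.1, R 4.3.3), on genotype alone. All tests, two-sided, were adjusted over the genes of each fit by the Benjamini-Hochberg method. Fits corrected for GC content and length held 15001 genes, the filter of 1 CPM in all 6 libraries 14202, and no filter 31730. All other fits held 15088 genes. A gene was called at an adjusted p under 0.05. Levels are CPM from the deposited counts and library totals, as mean ± SD. No 2 libraries of a genotype were alike within counting noise (chi-square per degree of freedom of 4.29 or more). The fits were tested on simulated data.

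Genes were named by rule: called members, the partners of 4 complexes, METTL2A and METTL2B, THUMPD1, and the 6 other genes with the smallest adjusted p. Remaining members are given by role. Alternatives were TMM scaling, library sizes without further scaling, a filter of 1 CPM in all 6 libraries, no filter, edgeR 4.0.16 and DESeq2 1.42.0 on rounded counts, correction of the log2 values of every library for GC content and length (splines with 5 degrees of freedom) with and without block, a replicate block, and each library left out.

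Both genotypes have replicates 1, 2 and 3, and what a number marks is not given in the labels. Deviations from the genotype means correlated at 0.270, 0.227 and 0.142 for libraries of the same number (across 15088 genes), and at −0.254 to 0.0902 for different numbers, so the numbers were taken to pair the libraries and block values are given where they change a call.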

Additional observations from a re-analysis of the deposited data

How the results depend on the processing

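Of the 9 called members, 5 kept the call in all 15 alternatives, and no called member changed direction in any. Among the 50 not called, 15 changed sign in at least one alternative. The like counts over all genes tested are not given. The number of members called was 9 to 11 with TMM scaling, library sizes alone, 1 CPM in all 6 libraries, edgeR and DESeq2. In these fits 24.3% to 26.9% of all genes were called. With no filter 6 of 59 were called, beside 3200 of 31730 genes (10.1%). These shares are of unlike sets, since the 31730 genes include those under the filter, which all 59 members passed. The number of members called was 17 with the replicate block, 14 after removal of the GC content and length trend, and 16 with both. These fits moved the count over all genes too, to 5297, 4406 and 5566. Leaving out 1 library gave between 5 (without THUMPD1 KO replicate 2) and 11 called members (without WT replicate 1), with 17.7% and 28.1% of all genes called in these fits, and between 6 and 10 of the other 36 genes. The median log2 fold change of the members was 0.055, and it was 0.034 with TMM scaling, 0.036 with edgeR and 0.037 with DESeq2, where the median over all genes also fell, from 0.016 to 0.004 or 0.005. Leaving out 1 library gave a median of 0.037 to 0.090. The block changed no call beyond those named beside the genes, all of them gains. No member had fewer than 216 counts in a library, and the median SE of the members was 0.061 on the log2 scale. The cause of these changes was not tested.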
